A study of Mus musculus with 12 samples.

Results

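The genes described here encode collagens, laminin chains, integrin subunits, fibulins and thrombospondins. They were chosen by gene symbol (Col, Lama, Lamb, Lamc, Itga, Itgb, Fbln and Thbs followed by the chain number) and selected on having at least 1 count in the 12 libraries. Of 91 symbols of this form, 87 had a count, out of 22609 genes in the count tables, of which 18375 had at least 1 count. Col4a5, Col8a1, Itgb2l and Thbs4 were just outside the choice, with 0 counts in all libraries, and Col1a2, Col13a1, Itgam, Itgax and Itgb6 were just inside it, with 1 count each. Fbln2 was singled out in the choice itself because its CPM (counts scaled to the size of the library) fell over the time points, so its levels are given as a description, without a test. The 87 genes were 41 collagens, 11 laminin chains, 18 integrin alpha and 8 integrin beta subunits, 4 fibulins, 3 thrombospondins and 2 genes that share only the form of the symbol, Itgb3bp, which encodes a centromere protein, and Itgbl1.

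RNA was sequenced from ANS cells, an adherent neural stem cell culture from mouse brain at embryonic age E14.5, with no difference in genotype between groups. T0 (3 libraries) was cells proliferating in growth medium with FGF2 and EGF. T1 (3 libraries) was cells 2 days after the change to medium D1, in which both growth factors are reduced and B27 is added. T2 (4 libraries) and T3 (2 libraries) were cells 2 days and 10 days after the change to medium B, which holds FGF-2 and BDNF and no EGF. The protocol directs these cells to GABAergic neurons. Cells were lifted with Accutase and seeded again on dishes coated with laminin before medium B, so the substrate changed between T1 and T2 together with the medium. The study calls the samples biological replicates without naming separate animals, so p-values here measure the spread between these samples. RNA came from whole cultures, in which a lower level can be fewer cells of a type or less RNA per cell, and these cannot be told apart.

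The extracellular matrix is the meshwork of secreted proteins around cells. Laminins are trimers of an alpha, a beta and a gamma chain that polymerise into basement membranes, to which type IV collagen gives strength and in which fibulins bind laminins and other components. Fibrillar collagens form fibres, FACIT collagens sit on the surface of fibres, type VI collagen forms beaded filaments, and transmembrane collagens span the cell membrane. Integrins are receptors made of 1 alpha and 1 beta subunit that link the matrix to the cytoskeleton: alpha 3, alpha 6 and alpha 7 bind laminin, alpha 1, alpha 2, alpha 10 and alpha 11 bind collagen, and alpha 5, alpha 8 and alpha v bind the RGD motif of fibronectin and related proteins. Thrombospondins are secreted glycoproteins that bind matrix and cell surface receptors. In the developing brain, neural stem cells touch laminin in the ventricular zone and at the pial surface, and laminin, integrin alpha 6 and integrin beta 1 are known for holding them there.

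Col23a1, Col27a1 and Col28a1 passed the test against T0 at T1, T2 and T3, and Fbln2 is the gene named in the choice. The 250 bases before the annotated start of these 4 genes are shown for that reason. The sequences are from RefSeq on GRCm38.p6, a later build than the mm9 of the expression files, read 5′ to 3′ on the strand of the gene. They are chr6:91212514-91212763 (+) for Fbln2, chr11:51289670-51289919 (+) for Col23a1, chr4:63215162-63215411 (+) for Col27a1 and chr6:8192618-8192867 (-) for Col28a1. Capitals mark a GC box (GGGCGG on either strand).
Fbln2: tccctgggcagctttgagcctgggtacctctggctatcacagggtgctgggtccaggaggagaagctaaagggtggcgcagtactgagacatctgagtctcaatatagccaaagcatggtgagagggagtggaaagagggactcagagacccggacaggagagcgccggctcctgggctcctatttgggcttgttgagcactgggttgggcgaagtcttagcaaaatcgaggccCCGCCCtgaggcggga
Col23a1: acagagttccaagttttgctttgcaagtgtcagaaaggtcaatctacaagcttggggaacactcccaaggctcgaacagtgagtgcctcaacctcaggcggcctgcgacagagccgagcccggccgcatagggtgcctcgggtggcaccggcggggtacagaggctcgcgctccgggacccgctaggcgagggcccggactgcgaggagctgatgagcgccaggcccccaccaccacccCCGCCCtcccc
Col27a1: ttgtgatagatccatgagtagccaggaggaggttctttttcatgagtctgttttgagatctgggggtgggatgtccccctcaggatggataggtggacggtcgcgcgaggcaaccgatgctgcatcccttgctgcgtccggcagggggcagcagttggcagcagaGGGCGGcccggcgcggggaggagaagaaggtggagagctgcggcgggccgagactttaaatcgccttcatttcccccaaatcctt
Col28a1: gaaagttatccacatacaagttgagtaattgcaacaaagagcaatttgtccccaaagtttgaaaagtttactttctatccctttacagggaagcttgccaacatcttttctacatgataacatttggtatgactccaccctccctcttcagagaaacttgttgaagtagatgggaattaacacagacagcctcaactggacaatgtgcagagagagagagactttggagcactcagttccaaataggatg
The promoters of Col23a1, Col27a1 and Fbln2 were 66%, 59.6% and 58.8% G and C, with 18, 15 and 8 CpG dinucleotides. That of Col28a1 was 40.4% G and C and held 0 CpG. Over the 32851 RefSeq promoters in the table the medians were 52.4% and 6. A GC box began 11 bases before the start of Col23a1, 85 before Col27a1 and 16 before Fbln2, and these letters were in 32.7% of all promoters. An E-box (CANNTG) was in each of the 4 promoters and in 66.2% of all, and a SOX site (ACAAAG, either strand) was in that of Col28a1, 217 bases before the start, and in 16.5% of all. A TATA box (TATAAA, in 12.4% of all), a CCAAT box (CCAAT, 33.8%) and an AP-1 site (TGANTCA, 6.75%) were not found in these 4 windows on either strand. Such matches describe the letters only. A promoter was in the table for 64 of the 87 genes.

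Library depth was 8910724 to 16631614 reads on genes (median 12601169). T0 replicate 3 stood apart from the other T0 libraries. Of 45 genes of the collection with enough reads for the check, 17 (37.8%) were more than 2-fold outside the range of T0 replicates 1 and 2 in that library, against 13.9% of 12201 genes in all. Col4a1, Col4a2, Itga4 and Thbs1 were above that range and 13 genes below it, with the widest gaps at Col6a2 (18.4-fold below the mean of replicates 1 and 2), Col6a1 (10.8-fold) and Itgb4 (7.35-fold). The astrocyte marker Gfap spanned 0.494 to 149.6 CPM over the T0 libraries, while the sum of 10 astrocyte markers, Gfap among them, spanned 3440 to 5846. The part of either in these values was not tested. The 2 libraries of T3 also differed, by more than 2-fold in 11 of the 45 genes (24.4%, against 7.14% of all genes), with Fbln1, Fbln2, Itga1, Itga5, Lamb1, Col4a4, Col5a1 and Col6a2 higher in replicate 4 and Col7a1, Itga10 and Itgb8 lower. Counts against T0 over the whole collection are therefore given with and without T0 replicate 3, as are the values of many genes it moved. Counts per family, per class and per list of other genes are given with that library only, and can shift without it.

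**Figure D1:**
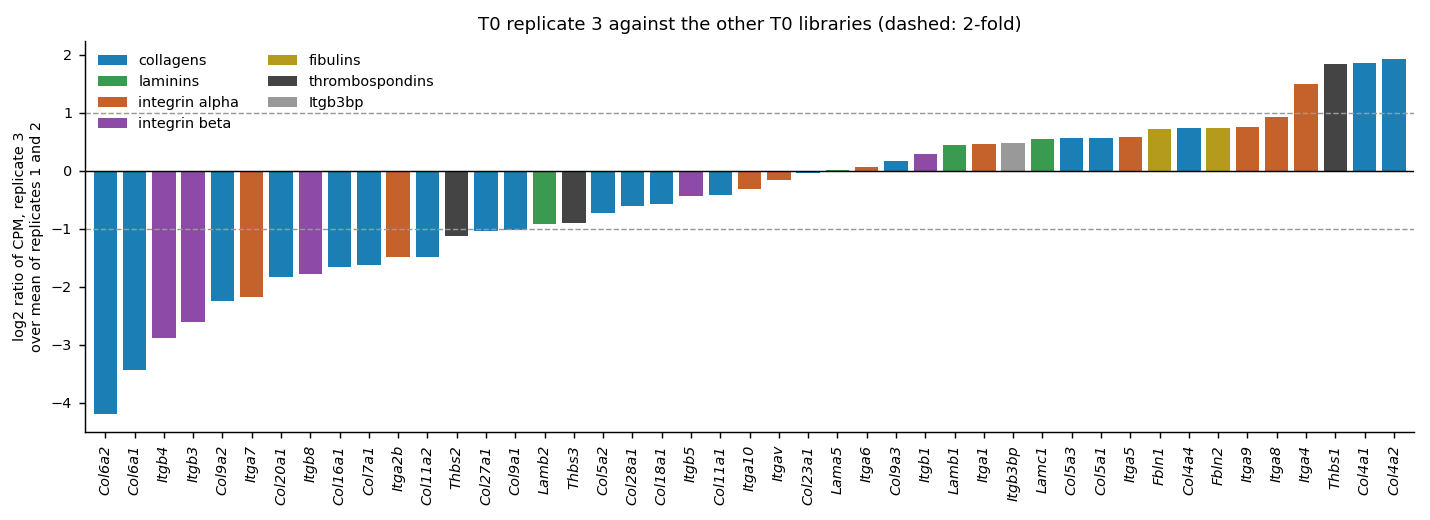
The log2 ratio of CPM in T0 replicate 3 over the mean of T0 replicates 1 and 2 (vertical axis) is shown for the genes of the collection with enough reads (horizontal axis), coloured by family, with dashed lines at 2-fold. Col6a2 and Col6a1 lie lowest, at -4.20 and -3.43, Col4a2 lies highest, at 1.94, and Lama5, Itga6 and Col23a1 lie near 0.

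Genes of the collection were called in both directions after growth medium was left. Per gene, a log2 fold change is the later time point over T0 and was called where the edgeR quasi-likelihood test gave an adjusted p under 0.05. At T1, 48 of the 87 genes passed the filter on low counts, and 11 of them (22.9%) were lower and 7 (14.6%) higher, where the shares over all genes tested were 16.8% and 15.1%. At T2, 13 of 49 (26.5%) were lower and 15 (30.6%) higher, against 21.8% and 21.4% of all genes. At T3, with 2 libraries, 1 of 51 was lower (1.96%) and 4 were higher (7.84%), against 1.41% and 3.31%. The median log2 fold change of the genes that passed the filter was -0.152, 0.0192 and 0.119 in these comparisons, beside -0.0082, 0.0023 and -0.015 over all genes tested. Fbln2 is among the lower genes in each of these counts and is the 1 lower gene at T3, and since it was named in the choice nothing is read from it. The 3 comparisons share the T0 libraries.

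When T0 replicate 3 was left out, 20 of 51 genes were lower at T1 and 16 higher (24.9% and 25.2% of all genes tested), 18 and 20 of 49 at T2 (25.3% and 26.7%), and 6 and 11 of 50 at T3 (8.49% and 9.94%). Fbln2 is again among the lower genes in each. The calls at T3 of Col19a1, Col23a1, Col27a1 and Col28a1 were all lost when T0 replicate 1, T0 replicate 2 or either T3 library was left out.

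**Figure D2:**
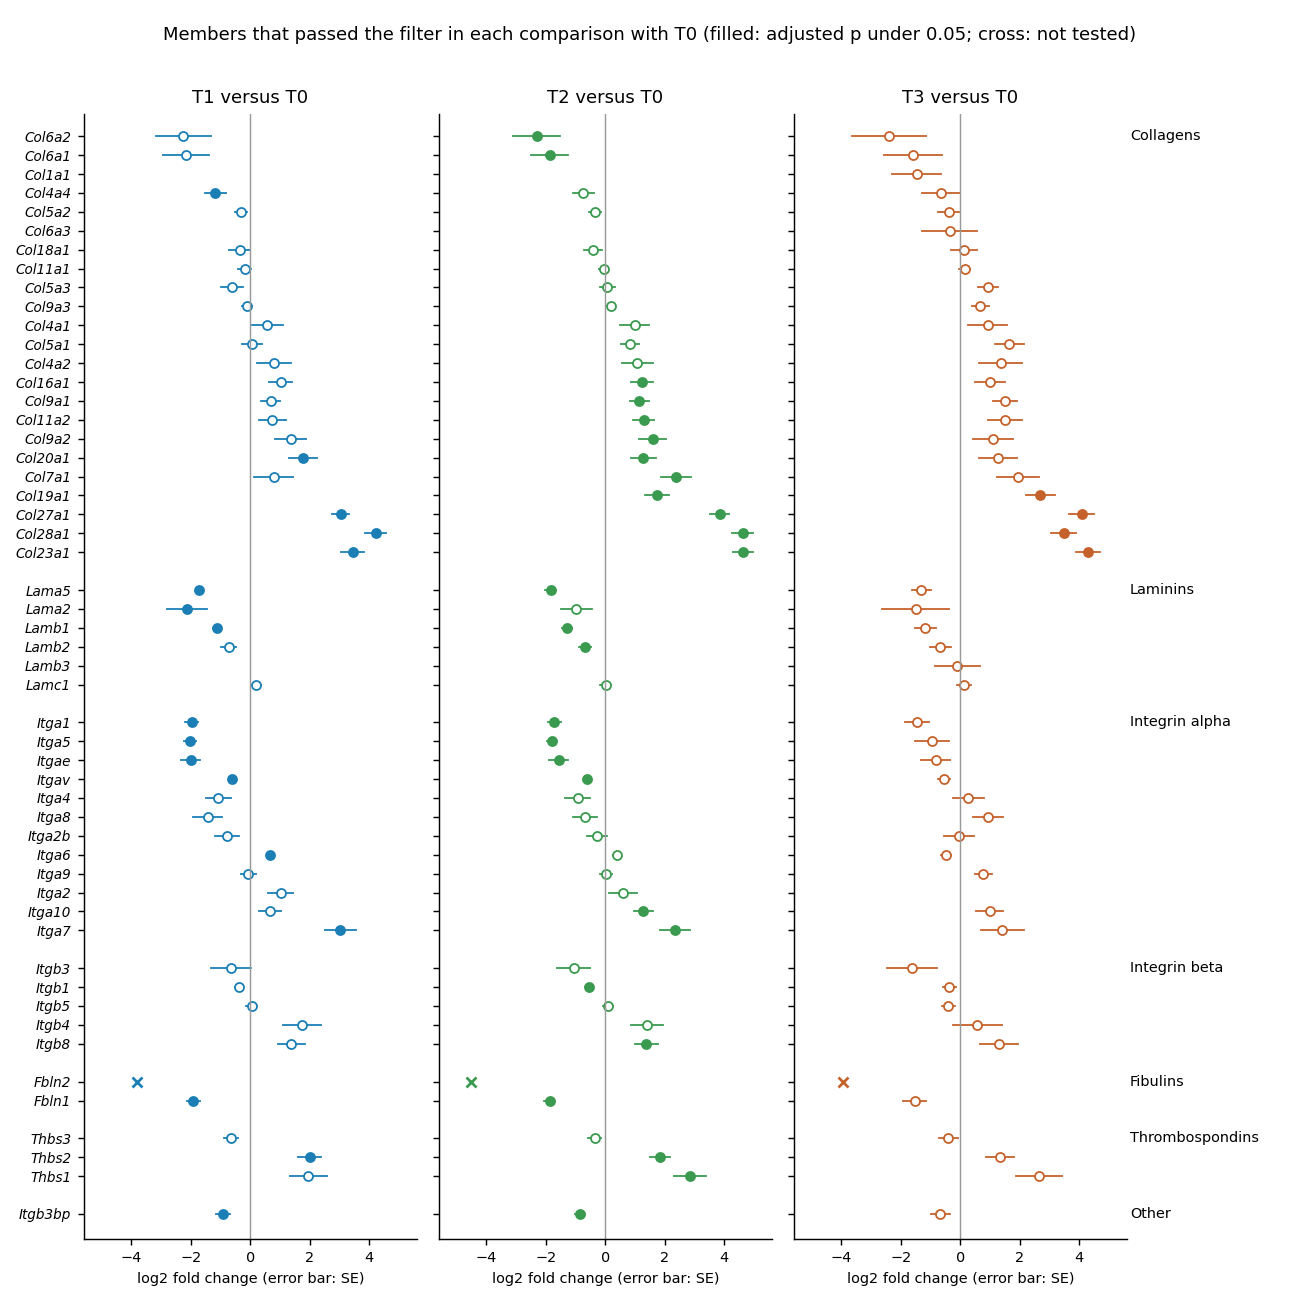
Log2 fold changes against T0 (horizontal axis, error bars are the SE of the fit) are shown for the genes of each family that passed the filter on low counts, in 3 panels for T1, T2 and T3, with filled points at an adjusted p under 0.05. Fbln2, named in the choice, is drawn as a cross with no error bar and no test. Col23a1, Col27a1 and Col28a1 lie farthest to the right and Fbln2 farthest to the left in every panel, and at T3 only 4 points are filled.

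The fibulins, which bridge basement membrane components, were represented by Fbln1 and Fbln2. Fbln5 and Fbln7 had at most 3 counts in every library. Fbln2 (mm9, chromosome 6, 91162449 to 91222534, plus strand, 18 exons) was at 49.6, 49.7 and 82.6 CPM at T0, at 4.57, 2.62 and 5.85 at T1, at 2.48, 3.05, 2.37 and 2.64 at T2, and at 1.76 and 6.14 at T3. Every later library was below every T0 library, and the lowest levels were at T2 and in T3 replicate 1. The group means were 60.6 ± 19.1 CPM (SD, n = 3) at T0, 4.35 ± 1.63 (n = 3) at T1, 2.64 ± 0.301 (n = 4) at T2 and 3.95 ± 3.09 (n = 2) at T3.

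Fbln1 (chromosome 15, 85036379 to 85116965, plus strand, 17 exons) was at 134, 126 and 213 CPM at T0, at 42.6, 37.6 and 45.1 at T1, at 43.4, 46.1, 38.5 and 43.2 at T2, and at 35.0 and 72.3 at T3. All later libraries were below T0, by 3.79-fold at T1 (log2 fold change -1.92 ± 0.22, adjusted p = 0.00149) and by 3.65-fold at T2 (-1.87 ± 0.19, adjusted p = 0.000181). At T3 the difference was -1.54 ± 0.40 and was not called (adjusted p = 0.0814). The calls at T1 and T2 held under every alternative tried. Fbln1 stayed the more abundant fibulin, with a mean FPKM of 28.35 over the time points.

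**Figure D3:**
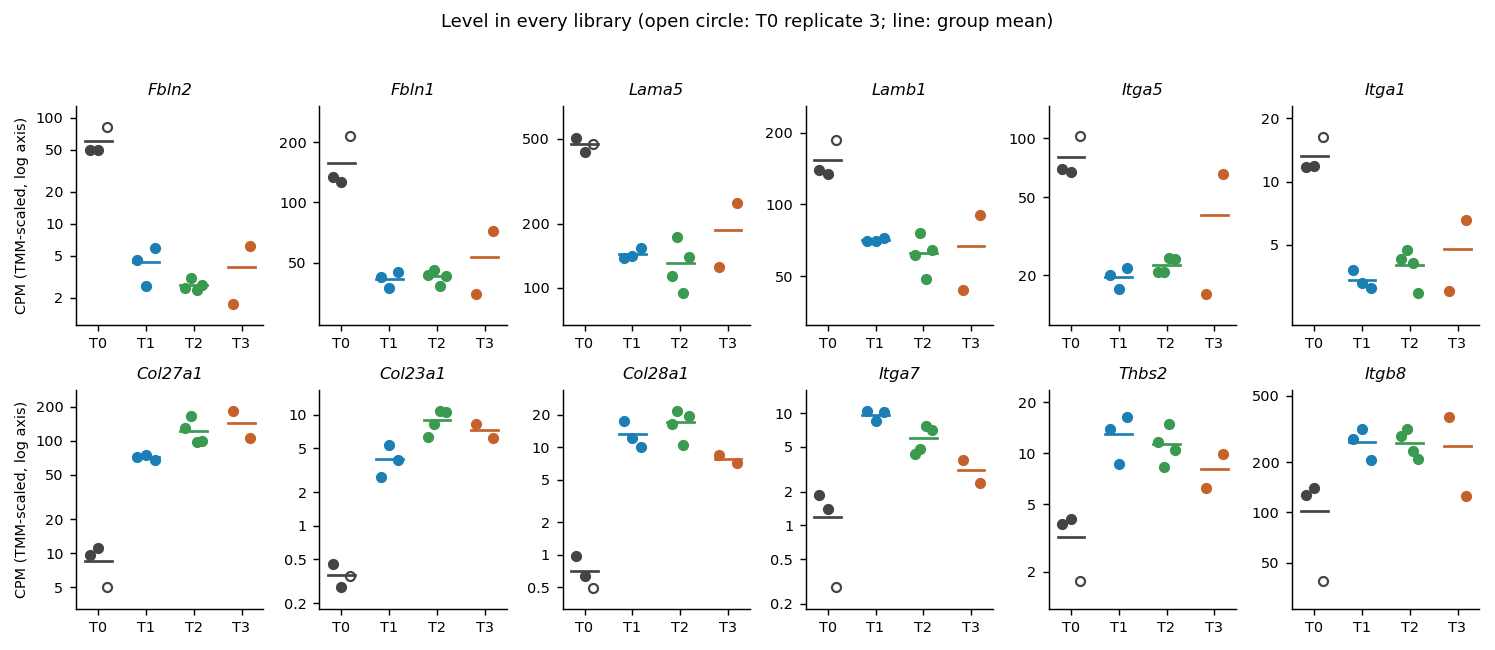
CPM on log axes is shown for 12 genes in every library by time point, with lines at the group means and T0 replicate 3 as an open circle. The genes of the upper row are lower in every T1, T2 and T3 library than in every T0 library, and those of the lower row other than Itgb8 are higher in every later library.

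Among the 41 collagens, 1 was lower and 4 were higher of 20 tested at T1, 2 and 10 of 21 at T2, and 0 and 4 of 23 at T3. Over all genes tested the shares lower and higher were 16.8% and 15.1%, 21.8% and 21.4%, and 1.41% and 3.31%. Col27a1 (chromosome 4, 62875038 to 62996025, plus strand, 61 exons), a fibrillar collagen best known from cartilage, was at 9.68, 11.2 and 5.01 CPM at T0, at 71.9, 74.9 and 67.2 at T1, at 129, 165, 97.0 and 100.3 at T2, and at 182 and 105 at T3. No later library came near T0, and the T2 libraries lay above those of T1. It rose 8.25-fold at T1 (log2 3.04 ± 0.29, adjusted p = 0.000703), 14.4-fold at T2 (3.85 ± 0.32, adjusted p = 0.000101) and 16.9-fold at T3 (4.08 ± 0.41, adjusted p = 0.0159). Its share of the summed collagen FPKM went from 1.40% at T0 to 7.24%, 10.3% and 12.6%.

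Col23a1 (chromosome 11, 51103422 to 51397420, plus strand, 29 exons), a transmembrane collagen, was nearly silent at T0, at 0.450, 0.279 and 0.353 CPM. It was at 2.76, 5.31 and 3.90 at T1, at 6.31, 8.24, 10.7 and 10.51 at T2, and at 8.29 and 6.14 at T3. It rose 10.8-fold at T1 (log2 3.44 ± 0.39, adjusted p = 0.00133), 24.6-fold at T2 (4.62 ± 0.33, adjusted p = 7.04e-05) and 19.8-fold at T3 (4.31 ± 0.40, adjusted p = 0.0136). The groups did not overlap with T0. The other transmembrane collagens, Col13a1, Col17a1 and Col25a1, were not tested at any time point.

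Col28a1 (chromosome 6, 7947808 to 8142617, minus strand, 35 exons) encodes a collagen known from peripheral nerve. It was at 0.975, 0.628 and 0.494 CPM at T0, at 17.4, 12.2 and 10.0 at T1, at 16.3, 21.8, 10.6 and 19.6 at T2, and at 8.37 and 7.10 at T3. Both T3 libraries were below every T1 and T2 library and above every T0 library. It rose 18.7-fold at T1 (log2 4.22 ± 0.36, adjusted p = 0.000536), 24.5-fold at T2 (4.61 ± 0.36, adjusted p = 8.22e-05) and 11.1-fold at T3 (3.47 ± 0.41, adjusted p = 0.0203). For Col23a1, Col27a1 and Col28a1 the calls at T1 and T2 held under every alternative tried.

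Of 9 FACIT collagens, 6 were tested at T2 and 5 of these were higher, where 21.4% of all genes tested were. They were Col16a1 (log2 1.23 ± 0.36, adjusted p = 0.0235), Col9a1 (1.14 ± 0.31, adjusted p = 0.0188), Col9a2 (1.60 ± 0.45, adjusted p = 0.0218), Col20a1 (1.28 ± 0.41, adjusted p = 0.0354) and Col19a1 (1.74 ± 0.41, adjusted p = 0.00984). Col20a1 was also higher at T1 (1.77 ± 0.48, adjusted p = 0.0302) and Col19a1 at T3 (2.68 ± 0.49, adjusted p = 0.0431). At T2 the call of Col9a1 was lost without T2 replicate 3, that of Col9a2 without T2 replicate 1, 3 or 4, and that of Col20a1 without T0 replicate 2 or any T2 library, while without T0 replicate 3 all 5 were called, with log2 fold changes of 0.87 for Col9a1, 1.15 for Col9a2, 0.87 for Col20a1 and 2.00 for Col19a1. At T1 Col20a1 was lost without T0 replicate 2 or any T1 library (highest adjusted p = 0.11). Col9a3, the remaining chain of collagen IX, was at 13.4 ± 0.961 CPM (SD) at T0 and 14.9 ± 2.18 at T2 and was not called.

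Col16a1 (chromosome 4, 129725084 to 129776527, plus strand, 70 exons) had the highest mean FPKM of the collagens over the time points, 56.26, while Col11a1 and Col5a2 had a higher mean CPM at T0. It was at 111, 98.7 and 32.9 CPM at T0, at 163, 151 and 177 at T1, at 199.8, 196, 192 and 160.2 at T2, and at 179 and 139.6 at T3. T0 replicate 3 was far below the other T0 libraries, and all later libraries were above T0. Without T0 replicate 3 its log2 fold change was 0.64 at T1 and 0.86 at T2, both called. With it, the call at T2 was lost without T2 replicate 1, 2 or 3 (highest adjusted p = 0.057). Col16a1 was 28.3% ± 9.48 (SD, n = 3) of the summed collagen FPKM at T0, from 17.35% to 34.49%, and 50.8%, 46.8% and 41.8% at T1, T2 and T3. The collagen shares were not tested and depend on the scale of the deposited FPKM. For Col16a1, Col11a1 and Col27a1 that was 2.57, 1.125 and 1.635 times the mean CPM per kilobase of exon.

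Of 6 type VI collagen chains, 2 were tested at T2, and both, Col6a1 and Col6a2, were lower, though T0 was split. Over all genes tested, 21.8% were lower at T2. Col6a1 (chromosome 10, 76171537 to 76188913, minus strand, 35 exons) was at 99.9, 92.7 and 8.82 CPM at T0, at 14.0, 13.7 and 17.2 at T1, at 18.3, 13.6, 22.9 and 17.4 at T2, and at 16.0 and 28.2 at T3. T0 replicate 3 was below every later library, while T0 replicates 1 and 2 were above every one. The log2 fold change at T2 was -1.88 ± 0.64 (adjusted p = 0.0423), and for its partner chain Col6a2 it was -2.30 ± 0.79 (adjusted p = 0.0442). Without T0 replicate 3 both were called at T1, T2 and T3, with -2.68, -2.40 and -2.12 for Col6a1 and -2.78, -2.86 and -2.97 for Col6a2. With it, both calls were lost when any other T0 or T2 library was left out.

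Type IV collagen, the network of basement membranes, moved with T0 replicate 3 as well. Col4a1 was at 5.55, 3.84 and 17.3 CPM at T0, and at 11.3 to 22.7 in the later libraries, and Col4a2 at 1.35, 1.047 and 4.87 at T0 and 3.35 to 7.75 later. Neither was called with all libraries. Without T0 replicate 3, Col4a1 was higher by log2 1.50, 1.92 and 1.83 at T1, T2 and T3 and Col4a2 by 1.81, 2.09 and 2.36. These genes overlap by 22 bases on opposite strands. Col4a4 was lower at T1 (-1.17 ± 0.36, adjusted p = 0.0469), a call lost under 9 of 13 alternatives, among them the loss of T0 replicate 2, T0 replicate 3 or any T1 library (highest adjusted p = 0.15).

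The abundant fibrillar collagens Col11a1 and Col5a2 were not called at any time point. Col11a1 was at 99.8 to 135 CPM at T0, 76.8 to 129.8 at T1, and 95.8 to 140.3 at T2 and T3, with overlap between the groups and log2 fold changes of -0.19 ± 0.22, -0.06 ± 0.15 and 0.15 ± 0.19. Col11a2, its partner chain, was higher at T2 (1.29 ± 0.36, adjusted p = 0.0207), from 0.917 to 2.78 CPM at T0 to 4.36 to 5.55, and was lost without T2 replicate 1 or 3 (highest adjusted p = 0.054). It was 0.92 ± 0.21 without T0 replicate 3 (adjusted p = 0.00469). Col7a1, which forms the anchoring fibrils of skin, went from 0.212 to 0.907 CPM at T0 to 1.78 to 4.78 at T2 (2.37 ± 0.51, adjusted p = 0.00665), or 1.93 ± 0.44 without T0 replicate 3. The fibrillar chains Col1a1, Col3a1, Col2a1 and Col1a2 were close to absent. Col1a1 was at most 1.13 CPM, Col3a1 at most 0.431, Col2a1 at most 0.307 and Col1a2 at 1 count in all.

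Of the 11 laminin chains, 5 passed the filter at T1 and 5 at T2, and in each case 3 were lower and 0 higher. The lower chains were Lama2, Lama5 and Lamb1 at T1, but Lama5, Lamb1 and Lamb2 at T2. Among all genes tested, lower calls made up 16.8% (T1) and 21.8% (T2), and higher calls 15.1% and 21.4%. The calls of Lama2 and Lamb2 were each lost when certain single libraries were left out. Lama5 (chromosome 2, 179911078 to 179960564, minus strand, 79 exons), the alpha chain of most laminins that stem cells attach to, was at 504, 433 and 474 CPM at T0, at 138, 141 and 154 at T1, at 114, 172, 94.9 and 139 at T2, and at 125 and 249.2 at T3. No later library reached the T0 range in CPM, while in FPKM T3 replicate 4 (48) was within that of T0 (45.35 to 86.6). The fall was 3.27-fold at T1 (log2 -1.71 ± 0.12, adjusted p = 0.000417) and 3.58-fold at T2 (-1.84 ± 0.19, adjusted p = 0.000216), and the T3 value of -1.31 ± 0.32 was not called (adjusted p = 0.0732). T0 replicate 3 was within 1.01-fold of the mean of the other T0 libraries for this gene in CPM. In FPKM it was higher, at 86.6 against 52.71 and 45.35.

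Lamb1 (chromosome 12, 31950099 to 32014509, plus strand, 34 exons), a beta chain, was at 139.5, 135 and 186 CPM at T0, at 70.3, 70.0 and 72.1 at T1, at 61.3, 75.8, 48.6 and 64.4 at T2, and at 43.8 and 90.6 at T3. It fell 2.17-fold at T1 (log2 -1.12 ± 0.15, adjusted p = 0.00233) and 2.43-fold at T2 (-1.28 ± 0.17, adjusted p = 0.000749), without overlap with T0. The other abundant beta chain, Lamb2, was at 141, 124 and 70.4 CPM at T0 and 61.0 to 75.8 at T2. It was lower at T2 (-0.69 ± 0.21, adjusted p = 0.0308), with T0 replicate 3 among the later values, and that call was lost when any other T0 or T2 library was left out. Without T0 replicate 3 it was lower at T1, T2 and T3, by -0.98, -0.93 and -0.92.

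Lamc1 (chromosome 1, 155066052 to 155179916, minus strand, 28 exons), the gamma chain, kept overlapping ranges, at 184, 183 and 269 CPM at T0, at 236, 243 and 253 at T1 and between 169 and 260.1 at T2 and T3. Its log2 fold changes were 0.20 ± 0.17, 0.01 ± 0.19 and 0.12 ± 0.24 and none was called. Without T0 replicate 3 it was higher at T1 by 0.41. Lama2, the alpha chain of muscle and vessel laminins, was at 0.750 to 1.83 CPM at T0 and lower at T1 (-2.13 ± 0.66, adjusted p = 0.0464), a call lost without T0 replicate 1 or 2 or T1 replicate 1 or 2 (highest adjusted p = 0.15).

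Per length, 1 chain of each kind but beta held nearly all of the laminin transcripts. Lama5 was 98.9% to 99.6% of the summed FPKM of the alpha chains over the time points, and Lamc1 98.8% to 99.8% of that of the gamma chains. Lamb1 and Lamb2 shared the beta chains, at 64.7% ± 11.2 (SD, n = 3) and 35.0% ± 11.4 at T0 and 53.5% ± 6.82 and 46.3% ± 6.72 at T2 (n = 4). The laminin shares were not tested and rest on the deposited FPKM. By mean CPM per kilobase of exon over the time points the order of the beta chains was the reverse, with Lamb2 at 14.09 and Lamb1 at 8.92. Lama1, Lama3, Lama4, Lamb3 and Lamc3 had low counts and none was called.

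**Figure D4:**
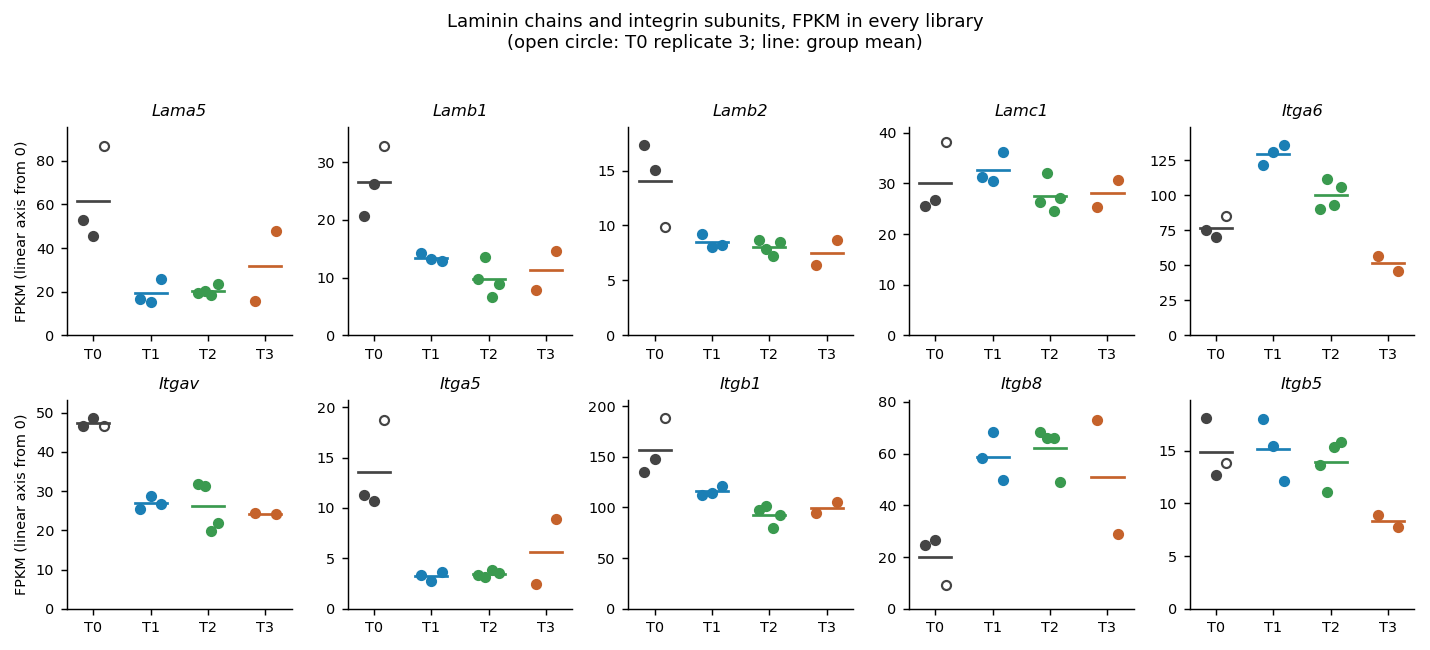
FPKM (linear axes from 0) of laminin chains and integrin subunits is shown in every library by time point, with lines at the group means and T0 replicate 3 as an open circle. Lama5, Lamb1, Itgav and Itga5 are highest at T0, Itga6 is highest at T1, Lamc1 and Itgb5 overlap between T0, T1 and T2, and Itgb8 spans a wide range at T3.

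Both laminin-binding integrin alpha subunits that were tested rose at T1, where 15.1% of all genes tested were higher. Itga6 (chromosome 2, 71583673 to 71696473, plus strand, 26 exons), a marker of neural stem cells that pairs with beta 1 or beta 4, was at 229, 217 and 232 CPM at T0, at 347, 375 and 364 at T1, at 258, 341, 243 and 322 at T2, and at 176 and 144 at T3. The T1 libraries were the highest and the T3 libraries the lowest of the series. It rose 1.60-fold at T1 (log2 0.67 ± 0.10, adjusted p = 0.00421), a call that held under every alternative, and the values at T2 (0.38 ± 0.14, adjusted p = 0.0556) and T3 (-0.48 ± 0.16, adjusted p = 0.127) were not called.

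Itga7 (chromosome 10, 128370869 to 128395333, plus strand, 27 exons), the other laminin-binding subunit that was tested, was at 1.88, 1.40 and 0.282 CPM at T0, at 10.3, 8.44 and 10.2 at T1, at 4.30, 4.81, 7.64 and 7.07 at T2, and at 3.85 and 2.37 at T3. It rose 8.13-fold at T1 (log2 3.02 ± 0.52, adjusted p = 0.00654) and 5.09-fold at T2 (2.35 ± 0.51, adjusted p = 0.0067). These were 2.56 ± 0.23 and 1.89 ± 0.32 without T0 replicate 3, the lowest library, both called. Every T3 library lay between those of T0 and T2, and T3 was not called. Itga3, the remaining laminin-binding subunit, was at 0.061 to 0.494 CPM in all libraries.

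Of the 4 RGD-binding subunits tested, 2 fell at T1 and T2 and 0 rose. Itga5 (chromosome 15, 103174720 to 103197194, minus strand, 30 exons), the fibronectin receptor subunit, was at 69.5, 67.3 and 103 CPM at T0, at 20.2, 16.96 and 21.8 at T1, at 20.7, 20.9, 24.6 and 24.1 at T2, and at 16.0 and 65.7 at T3. T3 replicate 4 came close to T0, and the other later libraries did not. The fall was 4.08-fold at T1 (log2 -2.03 ± 0.21, adjusted p = 0.000984) and 3.50-fold at T2 (-1.81 ± 0.17, adjusted p = 0.000143). At T3 it was -0.95 ± 0.58 and was not called (adjusted p = 0.35).

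Itgav (chromosome 2, 83564554 to 83647073, plus strand, 30 exons), which pairs with beta 1, 3, 5, 6 and 8, was at 215, 221 and 196 CPM at T0, at 139.5, 154 and 124 at T1, at 134, 161, 121 and 131 at T2, and at 120.4 and 165 at T3. All later libraries were lower. It fell 1.52-fold at T1 (log2 -0.60 ± 0.12, adjusted p = 0.0113) and 1.53-fold at T2 (-0.61 ± 0.12, adjusted p = 0.00442), and without T1 replicate 1 the call at T1 was lost (adjusted p = 0.061). Itga1, a collagen-binding subunit, was at 11.8, 11.9 and 16.2 CPM at T0, 3.11 to 3.79 at T1 and 2.95 to 4.72 at T2. It fell by 1.97 ± 0.22 and 1.72 ± 0.22 on the log2 scale (adjusted p = 0.00126 and 0.000605).

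Itgae, known from T cells, was lower at T1 and T2 as well, from 1.40 to 1.69 CPM at T0 to at most 0.431 and 0.648. The integrin alpha subunits of leukocytes, Itgam, Itgax, Itgad and Itgal, were at 0.431 CPM or less in every library.

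Itgb1 (chromosome 8, 131209554 to 131257100, plus strand, 16 exons), the partner of most of these alpha subunits, had the highest mean FPKM of the collection over the time points, 116.4. In FPKM, though not in CPM, it was below Itga6 at T1 and T2. It was at 653, 729 and 845 CPM at T0, at 547, 575 and 599.7 at T1, at 500.5, 533, 438 and 522 at T2, and at 490.6 and 647 at T3. The ranges at T1 and later lay below T0, by log2 -0.38 ± 0.14 at T1 (not called, adjusted p = 0.0749), -0.56 ± 0.13 at T2 (adjusted p = 0.0088, or -0.45 ± 0.10 without T0 replicate 3) and -0.37 ± 0.21 at T3 (not called, adjusted p = 0.316).

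Itgb8 (chromosome 12, 120396495 to 120477275, minus strand, 14 exons), which with alpha v binds latent TGF-beta, was at 127, 139 and 38.6 CPM at T0, at 273, 316 and 205 at T1, at 288, 315, 232 and 209 at T2, and at 372 and 126 at T3. The T1 and T2 libraries were above T0, and T3 replicate 4 was not. It was higher at T2 by log2 1.38 ± 0.39 (adjusted p = 0.022), and at T1 the same size of change was not called (1.38 ± 0.45, adjusted p = 0.0534). The call at T2 was lost without T2 replicate 1 or 2 (highest adjusted p = 0.06). Without T0 replicate 3 the change was 0.99 at T1 and 0.99 at T2, both called.

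Itgb4, the beta partner of alpha 6 in hemidesmosomes, was at 8.18, 6.56 and 0.917 CPM at T0 and 17.4 ± 2.70 (SD, n = 3) at T1. It was not called with all libraries (1.74 ± 0.62, adjusted p = 0.0714) and was higher at T1 (1.24) and T2 (0.89) without T0 replicate 3. Itgb3 went the other way without that library, with -1.10, -1.56 and -2.10 at T1, T2 and T3. Itgb5 was at 36.5 to 50.3 CPM at T0, 39.6 to 52.6 at T1 and 38.3 to 56.0 at T2 and was not called. Itgb2, Itgb6 and Itgb7 were at 0.910 CPM or less in every library.

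On the FPKM scale the make-up of the integrin transcripts shifted. Itga6 was 48.8% ± 1.09 of the summed alpha subunits at T0 and 74.5% ± 1.13, 69.0% ± 3.16 and 51.6% ± 5.19 over the next time points (SD, n = 3, 3, 4 and 2). Itgav went from 30.2% to 15.5%, 18.1% and 24.4%, and Itga5 from 8.51% to 1.86%, 2.41% and 5.78%. Among beta subunits Itgb1 went from 80.6% ± 7.36 to 59.9% ± 4.32, 54.0% ± 3.89 and 63.1% ± 14.1, and Itgb8 from 10.7% to 30.2%, 36.2% and 30.5%. These shares were not tested. They rest on the deposited FPKM, which was 3.11, 2.13 and 0.696 times the mean CPM per kilobase of exon for Itga6, Itgav and Itga5. For Itgb1 and Itgb8 it was 0.797 and 2.42 times, so the shares depend on the scale.

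Thrombospondins 1 and 2, secreted by astrocytes and known to promote synapse formation, were both called higher at T2, of 3 tested. Over all genes tested, 21.4% were higher there. Thbs2 (chromosome 17, 14802507 to 14831269, minus strand, 22 exons) was at 3.83, 4.12 and 1.76 CPM at T0, at 14.0, 8.67 and 16.3 at T1, at 11.7, 8.33, 15.0 and 10.51 at T2, and at 6.28 and 9.90 at T3. It was above T0 in every later library, by 4.00-fold at T1 (log2 2.00 ± 0.38, adjusted p = 0.00944) and 3.55-fold at T2 (1.83 ± 0.33, adjusted p = 0.00303), or 1.71 and 1.53 on the log2 scale without T0 replicate 3, both called. Thbs1 was at 0.150, 0.419 and 1.27 CPM at T0 and at 3.25, 5.46, 3.46 and 5.59 at T2 (2.85 ± 0.55, adjusted p = 0.00418). At T1 it was not called (1.95 ± 0.63, adjusted p = 0.0524). T0 replicate 3 was the highest T0 library, and without it the values were 3.03 ± 0.49 at T1 and 3.93 ± 0.47 at T2, both called.

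Thbs3 was at 76.4, 73.7 and 39.9 CPM at T0 and at 39.2 to 53.4 in all later libraries and was not called. It was lower without T0 replicate 3, by -0.88, -0.61 and -0.64. Its exons share 6.59% of their length with Mtx1 on the opposite strand, and it ranked the fifth of the collection by FPKM and 12 by CPM per kilobase of exon. Itgb3bp, which shares exon sequence with Pgm2, was lower at T1 (-0.93 ± 0.23, adjusted p = 0.0242) and T2 (-0.85 ± 0.17, adjusted p = 0.00444), and at T1 the call was lost without any 1 T1 library (highest adjusted p = 0.081).

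Ordered by mean FPKM over the time points, Itgb1 (116.4) was followed by Itga6 (89.45), Col16a1 (56.26), Itgb8 (47.99), Thbs3 (43.43), Lama5 (33.29), Itgav (31.19), Lamc1 (29.62) and Fbln1 (28.35). This order holds for the mean and not for each time point. By FPKM, Itga6 was above Itgb1 at T1 (129.6 against 116) and at T2 (99.97 against 92.78). At T0 Fbln1 (62.93) and Lama5 (61.55) were above Thbs3 (46.39), Col16a1 (29.3) and Itgb8 (20.17). By mean CPM per kilobase of exon over the time points, Itgb1 was at 146 and Itga6 at 28.8, a much wider gap. A mean of at least 1 FPKM at some time point was reached by 35 of the 87 genes, and 15 had at most 3 counts in every library, which leaves their levels undetectable at this depth. Of the 49 with a mean CPM of at least 1 at some time point, 20 had their highest mean CPM at T0, and 7, 9 and 13 at the time points after it.

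Between the later time points few genes moved. From T1 to T2, 47 were tested and 0 were lower and 0 higher by edgeR, against 0.0565% and 0.573% of all genes, with 5 lower and 10 higher at an unadjusted p under 0.05 and 0 and 3 called by DESeq2. Replicate numbers pair the libraries of T1 and T2, and with the replicate number as a block 0 were lower and 2 higher (0.476% and 1.51% of all genes), or 0 and 0 where all 12 libraries entered the fit with the block. These were Col27a1 (log2 0.85 ± 0.11, adjusted p = 0.018) and Col23a1 (1.10 ± 0.21, adjusted p = 0.048). Without the block their values were 0.79 ± 0.17 (adjusted p = 0.0822) and 1.17 ± 0.26 (adjusted p = 0.0844).

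From T2 to T3, 46 were tested and 0 were lower and 1 higher, against 0.691% and 0.5% of all genes. The gene called was Itga9 (chromosome 9, 118515808 to 118810121, plus strand, 28 exons), the subunit that binds tenascin-C and osteopontin, at 17.4, 20.3, 21.5 and 17.5 CPM at T2 and 33.2 and 31.2 at T3 (0.75 ± 0.14, adjusted p = 0.0492). Both T3 libraries were above every other library of the series. The call was lost under 9 of 13 alternatives, among them the loss of any T2 library or of T3 replicate 4 (highest adjusted p = 0.2). Itga8 (1.62 ± 0.31, adjusted p = 0.0506) and Itga6 (-0.87 ± 0.17, adjusted p = 0.0516) lay just past the threshold.

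Some genes of the collection are neighbours on the chromosome. Itga2 and Itga1 lie 26037 bases apart on the same strand, with log2 fold changes at T1 of 1.02 (not called) and -1.97. Col6a2 and Col6a1, 85161 bases apart, had -2.30 and -1.88 at T2. Col9a1 and Col19a1, 9151 bases apart on opposite strands, had 1.14 and 1.74 at T2.

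The other genes of the pathway were counted on 5 lists, beside shares over all genes tested of 16.8% lower and 15.1% higher at T1, 21.8% and 21.4% at T2, and 1.41% and 3.31% at T3. Of 17 other basement membrane genes and laminin partners, 3 were lower and 1 higher of 15 tested at T1, 3 and 3 of 17 at T2, and 0 and 1 of 17 at T3. Hspg2, which encodes perlecan, fell from 204.9 to 219.1 CPM at T0 to 61.0 to 84.1 at T1 (log2 -1.57 ± 0.14, adjusted p = 0.000657). Npnt, the nephronectin ligand of integrin alpha 8, fell at T1 (-1.91 ± 0.37, adjusted p = 0.00984), while Smoc2, a calcium-binding matrix protein, rose at T2 (2.16 ± 0.30, adjusted p = 0.000841).

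Of 40 genes of interstitial and neural matrix, 27 were tested against T0, and 7 were lower and 8 higher at T1, 6 and 8 at T2, and 2 and 2 at T3. Fn1, fibronectin, the ligand of integrin alpha 5, fell at T1 from 139.7 to 201.1 CPM to 32.8 to 45.2 (-2.23 ± 0.19, adjusted p = 0.000576). Tnc, tenascin-C, fell at T2 (-2.37 ± 0.17, adjusted p = 6.96e-05), and Cd44, the hyaluronan receptor, at T1 (-2.20 ± 0.13, adjusted p = 0.000371). Spon1, F-spondin, rose at T1 (2.47 ± 0.15, adjusted p = 0.000398) and Cspg5, the proteoglycan neuroglycan C, with it (2.12 ± 0.18, adjusted p = 0.000536).

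Of 32 enzymes and chaperones of collagen modification, 11 were lower and 0 higher of 23 tested at T1, 11 and 0 of 22 at T2, and 3 and 0 of 23 at T3, with medians of -0.6, -0.55 and -0.34. Adamts14, which trims procollagen, fell at T1 (-3.36 ± 0.41, adjusted p = 0.0018), and at T3 Plod2, a lysyl hydroxylase (-1.32 ± 0.26, adjusted p = 0.0491), and P4ha1, a prolyl hydroxylase subunit (-1.07 ± 0.17, adjusted p = 0.0322), were lower.

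Of 39 integrin adaptors and signalling genes, 34 were tested against T0, with 5 lower and 5 higher at T1, 7 and 5 at T2, and 1 and 0 at T3, which was Vcl, vinculin (-1.03 ± 0.18, adjusted p = 0.0394). Of 31 matrix proteases and inhibitors, 4 were lower and 6 higher of 21 at T1, 7 and 9 of 23 at T2, and 0 and 4 of 24 at T3. Mmp24, a membrane-bound metalloproteinase, rose from 0.0705 to 0.628 CPM at T0 to 8.02 to 9.02 at T1 (4.56 ± 0.49, adjusted p = 0.0011), and Timp2, a metalloproteinase inhibitor, rose with it (1.37 ± 0.11, adjusted p = 0.00051).

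Markers of other cells that make matrix were counted beside these results. The summed CPM of 10 endothelial markers was 5.55 to 9.17 at T0 and 3.79 to 7.86 later, with Cldn5 at 0 at T0 and T1. The mean CPM of Eng was 4.13 at T0 and 0.867, 1.33 and 1.85 at T1, T2 and T3. That of Kdr was 0.668 at T0 and 1.46, 1.38 and 1.48 after it. Of 10 pericyte and smooth muscle markers, 2 were over 1 CPM on average at T0, Notch3 at 149.3 and Tagln at 1.17, Pdgfrb was at 0 in every library, and the sum was 81.0 to 189.9 at T0 and 64.9 to 113.5 later. Of 12 fibroblast and meningeal markers, 2 were over 1 CPM at T0, Twist1 at 24.2 and Foxc1 at 8.45, and Lum and Twist2 were at 0 throughout. The sum was 25.3 to 48.8 at T0 and 17.3 to 26.7 later. The T0 and later ranges of this sum overlapped. In the collection, Fbln1, Fbln2, Itga1 and Itga5 were lower on average at the later time points, and Col23a1, Col27a1 and Col28a1 were higher. The part of these markers in either was not tested. Of 12 microglial and leukocyte markers, C1qa, C1qb, C1qc and Tyrobp were at 0 throughout, and the sum was 3.81 to 7.20.

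Neural markers were abundant. The sums of 10 astrocyte markers were 3440 to 5846 CPM at T0 and 3019 to 4583 later, of 10 oligodendrocyte lineage markers 3545 to 3809 at T0 and 5396 to 6291 at T3, of 9 neuronal markers 897 to 986 at T0 and 1818 to 3035 later, and of 8 progenitor markers 5012 to 7457 in all libraries. The neuronal sum was higher in every later library than in every T0 library, while the genes called on leaving T0 went both ways. The part of any of these lists in the changes was not tested.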

How the data were processed

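The authors counted reads per gene and deposited counts that were not normalized. Per the labels and the submitters' processing notes, polyA RNA went through the TruSeq RNA kit v2, which does not mark strand, to a HiScanSQ, and the tools were TopHat2 2.0.6, Bowtie 0.12.7.0 and HTSeq 0.6.0 on mm9. The FPKM values deposited by the authors were used for levels between genes, untested. Columns of other samples were 0. The 5 entries that name no gene (reads on no feature were 13.3% to 24.1% of unique reads) were left out.

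The members and lists were chosen with earlier results of these data known. CPM were scaled by TMM over 12 libraries. Per comparison, filterByExpr and the edgeR 4.0.16 quasi-likelihood test (R 4.3.3, Benjamini-Hochberg adjustment, threshold 0.05) were run on the libraries of both groups. Alternatives included DESeq2 1.42.0, other filters, a replicate block and leaving out each library. The tests were tried on simulated data. Genes at or under 3 counts per library were treated as at the floor, and no fold was given there. Deviations of same-numbered libraries correlated between T1 and T2 (r = 0.241, 0.383 and 0.17), over the threshold of 0.1 in every pair, which is where the pairing comes from, although T1 replicate 3 correlated best with T2 replicate 4 (0.422). The rule for named genes took Fbln2, the 3 largest falls and rises called per family and comparison (mean log2 CPM 1 or more), the 3 highest by FPKM per family, all laminin chains and laminin-binding integrins, and, per list of other genes, the 2 largest each way. Others were chosen after their values were seen. Depth was 8910724 to 16631614 reads per library. T2 and T3 follow the labels, and the study's text differs on the T2 replicate number and the days to T3. Exon overlap and positions are from GENCODE vM1 on NCBIM37 (mm9). Results that need certain further genes are not reported here.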

Additional observations from a re-analysis of the deposited data

Results flagged for a closer look

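At T2, the group with 4 libraries, 49 genes of the collection were examined for a library far from the other 3, and 2 were past Dixon's critical value, where chance flags about 1 in 20. Col11a2 was at 4.36 CPM in T2 replicate 4 and at 5.37 to 5.55 in the others (ratio 0.847). Col6a2 was at 5.19 CPM in T2 replicate 3 and at 2.21 to 2.68 in the others (ratio 0.844).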

How the results depend on the processing

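No called value of a gene changed direction under the alternatives. With the replicate block, the T2 calls of Col6a1, Col6a2, Col9a1, Col9a2, Col11a2, Col20a1, Lamb2, Itga7, Itgae and Itgb1 were lost. The count of lower genes at T1 (11) was 22 with the libraries numbered 1 and 2, 17 in one fit of all 12 libraries, and 7 to 20 when 1 library was left out. Higher genes at T1 (7) were 13 by DESeq2, 13 with all libraries and a replicate block, 4 with at least 10 counts in every library, 18 with the libraries numbered 1 and 2, 13 in one fit, and 6 to 16 with 1 library left out. At T2, lower genes (13) were 8 with a replicate block and 10 to 18 with 1 library left out, and higher genes (15) were 10 with the block and 10 to 20. At T3, lower genes (1) were 5 by DESeq2, 9 with all libraries and a block, 3 with no filter, 7 in one fit and 0 to 6, and higher genes (4) were 7, 11, 4, 12 and 0 to 11 in that order, and 1 with at least 10 counts. From T1 to T2, higher genes (0) were 3 by DESeq2, 1 with the libraries numbered 1 and 2, 2 with no filter, 2 with the block and 0 to 0. From T2 to T3, lower genes (0) were 3 by DESeq2, 2 with no filter, 1 in one fit and 0 to 4, and higher genes (1) were 3, 3 and 0, 0 with either block and 0 to 9. Where a T3 library was left out, the lone one was assumed to vary like the other group. T1 and T2 share only numbers with T0 (r from -0.17 to 0.13, and not every library correlated best with its own number), T3 and T2 share 2 numbers (r = -0.0471 and 0.271), and for T3 against T0 no block could be fitted, since 1 number is shared. The cause of these moves was not tested.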
